A study of Homo sapiens with 12 samples.

Results

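The genes described here encode the proteasome, the protease that degrades ubiquitin-tagged proteins, together with its activators, its inhibitor and the factors that assemble it. They were taken as every named row of the gene table whose symbol is PSMA, PSMB, PSMC, PSMD, PSME, PSMF or PSMG followed by a number, plus POMP, ADRM1 and SEM1. The rule found 51 of 60671 named rows. They were sorted by known role into 19 subunits of the 19S cap, 14 subunits of the standard 20S core, 8 assembly factors, 5 activators and inhibitors, and 5 tissue-specific subunits of the core.

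Bulk RNA sequencing had been done on HCT116, a long-established line from a human colorectal carcinoma, labelled wild type. The 4 groups held 3 samples each. They were cells in medium with 0 mM cystine for 24 h, cells kept in full DMEM for 24 h, cells in medium with 0 mM cystine for 48 h, and cells kept in full DMEM for 48 h. Cystine, the oxidised form of cysteine, is the main cysteine source in culture medium, and the study as a whole concerns cysteine metabolism in colorectal cancer. Per the labels, the deprived cells were washed before they received their medium, while the controls were kept in full DMEM. Whether the control medium was renewed is not stated. A difference between the groups can therefore include the wash and any difference in medium renewal. All samples come from this 1 line. Whether the samples of a group were grown as separate cultures is not stated, and the spread behind each p-value could therefore be partly technical.

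The 26S proteasome consists of a barrel-shaped 20S core, in which stacked rings of alpha and beta subunits enclose the proteolytic sites, and a 19S cap that recognises ubiquitin chains, removes them and unfolds the substrate with a ring of ATPases. Dedicated chaperones assemble the core and the base of the cap separately. When proteasome activity is short, human cells are known to raise the transcription of proteasome genes through NFE2L1 (also called NRF1), which binds antioxidant response elements, and NFE2L2 (NRF2) can bind the same elements under oxidative stress. The immunoproteasome, in which the catalytic beta subunits are replaced by PSMB8, PSMB9 and PSMB10, is induced by interferon and serves antigen presentation.

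Promoter sequences of 45 of the 51 genes were found in RefSeq (GRCh38.p14), 10 of them with several listed starts. PSMA7, PSMB1, PSMB6, PSMB7, PSMD4 and PSMG3 were not matched. The 250 bases before each start were searched on both strands for the antioxidant response element in its short form, TGACNNNGC, where N is any base. A match was present in 15 of the 45 genes (33.3%), against 13.2% of the 27305 genes with a listed promoter and 15.9% of the 11380 such genes that were also tested for expression. The following 6 stretches, each read 5′ to 3′ along the strand of its gene, hold a match, shown in capitals. They are shown because the 6 genes cover the expression patterns described below: PSMD12 and PSMD9 were higher in deprived cells at both times, PSMB3 and PSMD3 were lower at 24 h and higher at 48 h, and PSME1 and PSME2 were lower at both times.
PSMD12: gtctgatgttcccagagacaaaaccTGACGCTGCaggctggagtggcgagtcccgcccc
PSMD9: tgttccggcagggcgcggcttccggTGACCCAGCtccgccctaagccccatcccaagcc
PSMB3: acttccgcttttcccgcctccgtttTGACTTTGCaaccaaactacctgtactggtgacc
PSMD3: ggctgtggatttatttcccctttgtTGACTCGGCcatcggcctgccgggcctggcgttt
PSME1: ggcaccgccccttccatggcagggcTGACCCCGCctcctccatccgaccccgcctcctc
PSME2: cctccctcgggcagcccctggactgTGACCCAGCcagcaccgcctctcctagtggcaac
The PSMD12 stretch is chr17:67366709-67366767 on the minus strand, and its match lies 165 bases before the start. The PSMD9 stretch is chr12:121888663-121888721 on the plus strand (102 bases before the start). That of PSMB3 is chr17:38752612-38752670 on the plus strand (104 bases), and that of PSMD3 is chr17:39980745-39980803 on the plus strand (37 bases). The PSME1 stretch is chr14:24136083-24136141 on the plus strand (86 bases), and that of PSME2 is chr14:24146752-24146810 on the minus strand (175 bases).

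The motif was present in genes of every direction. It occurred in 4 of 13 promoters of genes called higher at 24 h (30.8%), in 10 of 23 of genes called lower at 24 h (43.5%) and in 6 of 30 of genes called higher at 48 h (20%). By part of the complex it occurred in 5 of 18 cap promoters (27.8%) and 2 of 10 core promoters (20%). The CCAAT box, searched as CCAAT on both strands, was present in 21 of 45 proteasome promoters (46.7%), in 37% of all promoters and in 41.3% of those of tested genes. The interferon-stimulated response element, searched in the same windows, was present in 5 of 45 proteasome promoters (11.1%). It was present in 3.71% of all promoters and in 3.3% of those of tested genes. The matches were in PSMA4, PSMB4, PSMB10, PSME2 and PSMG4. The heat shock element was present in 0 of 45 proteasome promoters, in 0.557% of all promoters and in 0.475% of those of tested genes. These counts describe letters in a fixed window and not binding.

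Libraries held 19146108 to 24179533 estimated counts. Of the epithelial markers EPCAM, KRT8, KRT18, CDH1 and CDX1, the first 4 were expressed in every library and CDX1 was at 0 in all 12. The leukocyte markers PTPRC and CD3E were at 0, and DCN and PECAM1 did not exceed 6 estimated counts in any library, while PDGFRB reached 21 and VWF 42. COL1A1, a fibroblast marker, averaged 17.9 CPM (counts scaled to library sizes by the TMM method) in deprived cells and 31.7 in control cells at 24 h, and 20 in deprived cells and 45.6 in control cells at 48 h, and its part in the results was not tested. In bulk samples, fewer cells of a type and less RNA per cell cannot be told apart.

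Of the 51 genes, 50 passed the filter on low counts and were tested. PSMB11, the thymus-specific core subunit, reached at most 6 estimated counts and was not. A gene is called higher or lower where its adjusted p in edgeR's quasi-likelihood test, with Benjamini-Hochberg adjustment over all 16994 genes tested, is below 0.05. At 24 h, 15 of the 50 were higher and 26 lower in deprived cells than in controls, where 28.8% of all genes tested were called higher and 26.9% lower. At 48 h, 35 were higher and 10 lower, against 33.5% and 34.9% of all genes. The median log2 fold change of the 50 genes was -0.17 at 24 h and 0.31 at 48 h, while the median of all genes tested was -0.01 at 24 h and -0.02 at 48 h.

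The deprivation effect differed between the times for most of the genes. In the test of the difference itself (the 48 h change minus the 24 h change), 36 of the 50 had a more positive and 4 a more negative change at 48 h, where 16.4% and 19.2% of all genes did. A set of 15 genes was lower at 24 h and higher at 48 h, which is 30% of the 50, against 0.994% of all genes tested. It comprised 9 core subunits (PSMA1, PSMA3, PSMA6, PSMB1, PSMB2, PSMB3, PSMB4, PSMB5 and PSMB7) and 6 cap subunits (PSMC2, PSMC6, PSMD1, PSMD2, PSMD3 and PSMD13). The count fell to 10 without replicate 2 of the 24 h control or without replicate 2 of the 24 h deprived cells, and was 12 to 15 without any other library. Another 15 genes were higher at both times (22.6% of all genes were) and 7 were lower at both (21.3% of all).

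**Figure D1:**
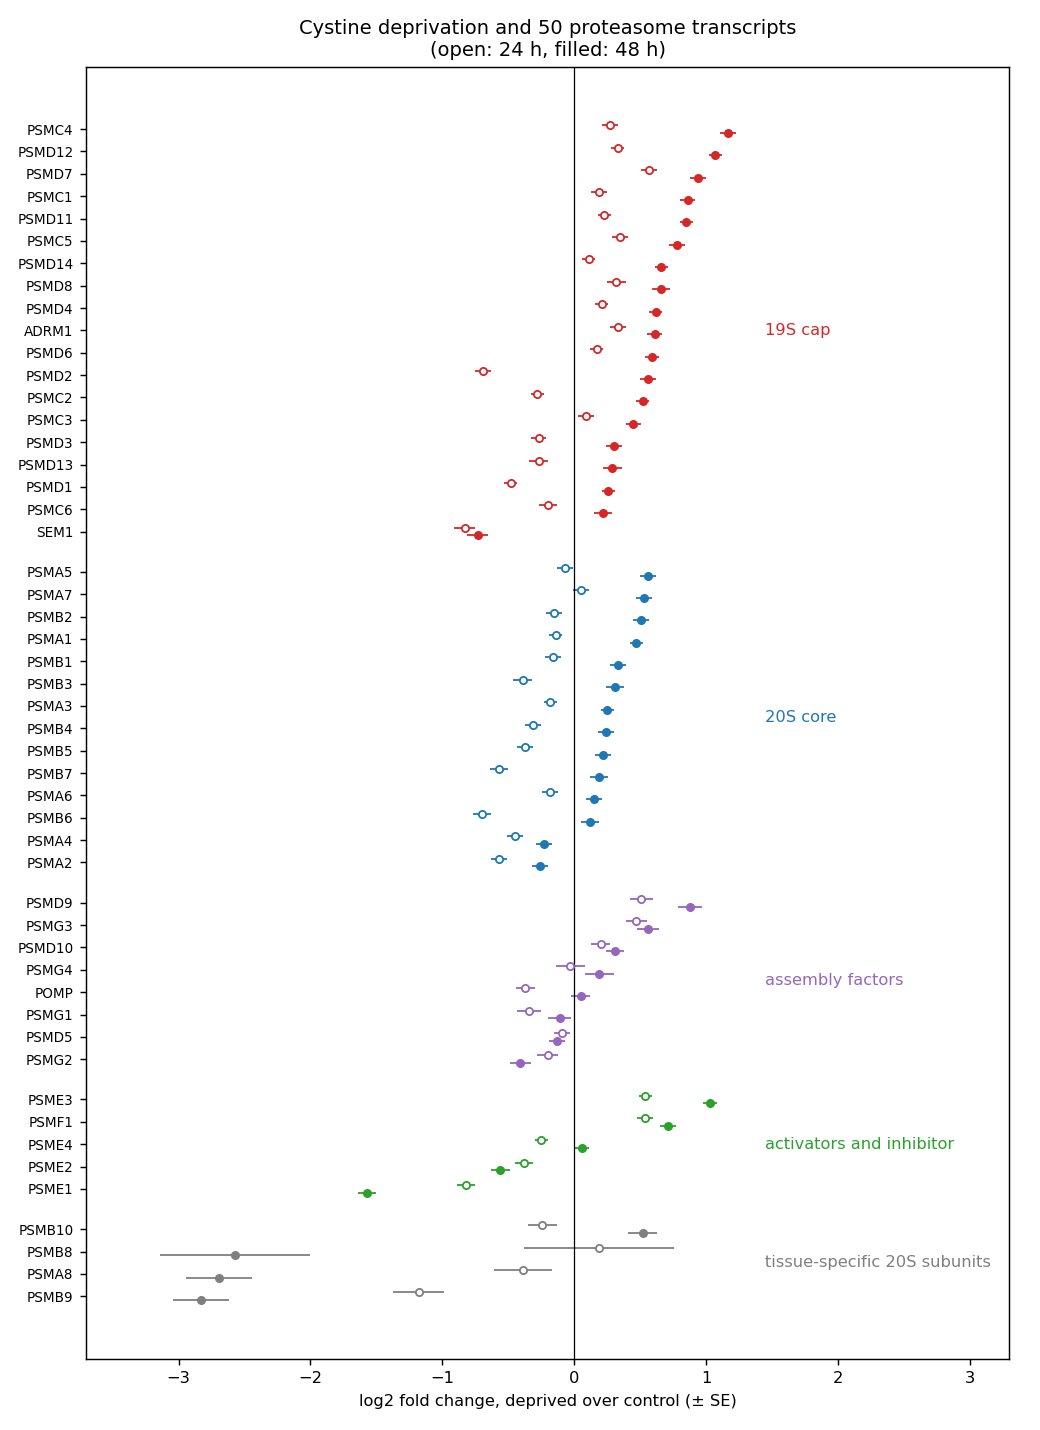
Log2 fold change of deprived over control cells (horizontal axis) with its SE for the 50 proteasome transcripts tested, by part of the complex, at 24 h (open) and 48 h (filled). In the 20S core every open point but that of PSMA7 lies below 0, whereas 18 of the 19 filled cap points lie above 0, the exception being SEM1.

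The 19S cap split at 24 h and rose almost throughout at 48 h. Of its 19 genes, 10 were higher (52.6%, against 28.8% of all genes) and 7 lower (36.8%, against 26.9%) in deprived cells at 24 h. At 48 h, 18 were higher (94.7%, against 33.5%) and 1 lower (5.26%, against 34.9%). The median log2 fold change was 0.17 at 24 h and 0.61 at 48 h. The 10 that were higher at both times were the ATPases PSMC1, PSMC4 and PSMC5, the ubiquitin receptors ADRM1 and PSMD4, and the lid subunits PSMD6, PSMD7, PSMD8, PSMD11 and PSMD12. The lid is the part of the cap that holds the deubiquitinase PSMD14, and PSMD14 itself changed by 0.11 ± 0.05 at 24 h (SE, adjusted p = 0.0678; without replicate 1 of the 48 h deprived cells it was called, at 0.12) and rose by 0.66 ± 0.05 at 48 h (adjusted p = 1.19e-09). Under upper-quartile scaling or library totals alone, which lower the median of all genes at 24 h to -0.08, the number of cap genes higher at 24 h was 8.

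PSMD12, a scaffold subunit of the lid (ENSG00000197170, chr17:67337916-67366627), had 161, 158 and 159 CPM in deprived cells at 24 h, against 125, 128 and 127 CPM in controls. At 48 h it had 205, 212 and 211 CPM in deprived cells and 96.9, 95.2 and 107 CPM in controls. The groups did not overlap at either time, and the log2 fold changes were 0.33 ± 0.05 at 24 h (SE, adjusted p = 1.62e-05) and 1.07 ± 0.05 at 48 h (adjusted p = 6.29e-13). This was a 2.1-fold higher level at 48 h.

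PSMC4, an ATPase of the base ring, showed the largest 48 h increase among the cap genes. It had 93.9, 87.4 and 92.4 CPM in deprived cells and 75.9, 75.1 and 75.8 CPM in controls at 24 h. The 48 h values were 118, 131 and 132 CPM in deprived cells and 52.7, 59.2 and 57.4 CPM in controls. Its log2 fold change was 0.27 ± 0.06 at 24 h (adjusted p = 0.000659) and 1.17 ± 0.06 at 48 h (adjusted p = 1.82e-12), and the difference between the times was 0.90 ± 0.08 (adjusted p = 9.62e-08). Control cells had a lower PSMC4 level at 48 h than at 24 h, and deprived cells a higher one, so the 48 h change contains both.

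PSMD7, the partner of the deubiquitinase PSMD14 in the lid, had 128, 129 and 124 CPM in deprived cells and 84.9, 85.6 and 86.5 CPM in controls at 24 h. At 48 h it had 149, 162 and 160 CPM in deprived cells against 74.9, 85.2 and 84.6 CPM in controls. It was the cap gene with the largest increase at 24 h (0.57 ± 0.06 on the log2 scale, adjusted p = 7.36e-08), and it rose by 0.94 ± 0.06 at 48 h (adjusted p = 1.74e-11). Among the other cap genes that were higher at both times, the log2 increases at 48 h lay between 0.59 ± 0.05 for PSMD6 and 0.86 ± 0.06 for PSMC1.

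PSMD2 moved furthest between the times. PSMD2 (ENSG00000175166, chr3:184298709-184309054), a scaffold subunit of the base that docks ubiquitin shuttle proteins, had 273, 275 and 289 CPM in deprived cells at 24 h, against 448, 441 and 464 CPM in controls. The 48 h values were 379, 427 and 447 CPM in deprived cells and 268, 295 and 289 CPM in controls. The groups were fully separated at both times and in opposite directions, by -0.69 ± 0.06 at 24 h (adjusted p = 8.95e-09) and 0.56 ± 0.06 at 48 h (adjusted p = 6.94e-08). The difference of 1.25 ± 0.08 (adjusted p = 7.45e-10) was the largest positive one of the 50 genes.

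Other cap genes behaved like PSMD2 with smaller changes. PSMD1, the other large scaffold of the base, had 119, 115 and 116 CPM in deprived cells and 160, 162 and 165 CPM in controls at 24 h, and 116, 127 and 126 CPM in deprived cells and 102, 106 and 99.9 CPM in controls at 48 h. It fell by 0.48 on the log2 scale at 24 h and rose by 0.26 at 48 h (SE 0.05 at each time). The ATPase PSMC2 had 59.7, 60.3 and 60.6 CPM in deprived cells and 72.3, 74 and 73.4 CPM in controls at 24 h. At 48 h its values were 72.4, 77.3 and 74.2 CPM in deprived cells and 49.8, 53.2 and 53.5 CPM in controls. In both genes the deprived and control samples were separated at each time, below the controls at 24 h and above them at 48 h.

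The lid subunits PSMD3 and PSMD13 and the ATPase PSMC6 completed the cap genes that changed sign. PSMD3 had 160, 164 and 172 CPM in deprived cells and 190, 197 and 210 CPM in controls at 24 h, and 182, 207 and 208 CPM against 158, 163 and 162 CPM at 48 h. PSMD13 had 99.7, 103 and 109 CPM in deprived cells and 118, 131 and 127 CPM in controls at 24 h, and 110, 120 and 123 CPM against 85.6, 101 and 102 CPM at 48 h. Neither gene had overlapping groups at either time. PSMC6 had 56.6, 49.4 and 48.3 CPM in deprived cells and 60, 62.9 and 54.5 CPM in controls at 24 h, and these groups overlapped. At 48 h PSMC6 had 60, 56.2 and 52.7 CPM in deprived cells and 50.1, 44.8 and 50.1 CPM in controls. The ATPase PSMC3 was not called at 24 h (0.09 ± 0.06, adjusted p = 0.211) and rose by 0.45 ± 0.06 at 48 h (adjusted p = 1.86e-06).

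SEM1, a small acidic lid subunit that also occurs in other complexes, was the only cap gene lower at both times. It had 32.6, 27 and 33.6 CPM in deprived cells and 55.1, 57.7 and 53.2 CPM in controls at 24 h. At 48 h it had 26.1, 30.6 and 26.4 CPM in deprived cells and 45.4, 43 and 50 CPM in controls. The groups did not overlap, and the log2 fold changes were -0.83 ± 0.08 (adjusted p = 8.83e-08) at 24 h and -0.73 ± 0.08 (adjusted p = 2.69e-07) at 48 h. The difference between the times was 0.10 ± 0.12 (adjusted p = 0.56).

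In the 20S core, 12 of the 14 genes were lower in deprived cells at 24 h (85.7%, against 26.9% of all genes), with a median log2 fold change of -0.25. PSMA7 and PSMA5 were not called, with changes of 0.05 ± 0.06 (adjusted p = 0.524) and -0.07 ± 0.06 (adjusted p = 0.29). PSMA5 was called lower under upper-quartile scaling (-0.14, adjusted p = 0.0326) and with library totals alone (-0.15, adjusted p = 0.0244), which gave 13 of 14 core genes lower. At 48 h, 11 were higher (78.6%, against 33.5% of all genes) and 2 lower (14.3%, against 34.9%), with a median of 0.24. All 7 subunits of the beta ring were lower at 24 h, and 6 of them were higher at 48 h. The core count at 24 h rested partly on small changes: it was 8 of 14 without replicate 2 of the 24 h control or replicate 2 of the 24 h deprived cells, and 9 without replicate 3 of that control or replicate 1 of those deprived cells.

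The 3 catalytic beta subunits were all lower at 24 h, and 2 of them were called higher at 48 h. PSMB6 (ENSG00000142507, chr17:4796144-4798503), which carries the caspase-like site, had 62.7, 62.1 and 60.7 CPM in deprived cells and 92, 106 and 103 CPM in controls at 24 h. After 48 h it had 77.4, 87.1 and 84.5 CPM in deprived cells and 69.7, 78.9 and 81.1 CPM in controls. The groups were separated at 24 h (-0.70 ± 0.07, adjusted p = 5.73e-08) and overlapped at 48 h (0.12 ± 0.07, adjusted p = 0.132). PSMB6 was called higher at 48 h (0.17, adjusted p = 0.04) when replicate 1 of the 48 h deprived cells was left out.

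PSMB7, with the trypsin-like site, had 93.2, 82.8 and 93.4 CPM in deprived cells and 133, 134 and 134 CPM in controls at 24 h. The 48 h values were 105, 122 and 117 CPM in deprived cells and 93, 103 and 107 CPM in controls. The 24 h groups were separated (-0.57 ± 0.07, adjusted p = 5.96e-07), while those at 48 h overlapped although PSMB7 was called higher (0.19 ± 0.07, adjusted p = 0.0182). PSMB5, with the chymotrypsin-like site, had 101, 105 and 108 CPM in deprived cells and 127, 139 and 140 CPM in controls at 24 h. At 48 h PSMB5 had 113, 126 and 129 CPM in deprived cells and 96.4, 107 and 112 CPM in controls. Its groups were separated at both times, by -0.37 ± 0.06 (adjusted p = 7.85e-05) and 0.22 ± 0.06 (adjusted p = 0.00468).

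**Figure D2:**
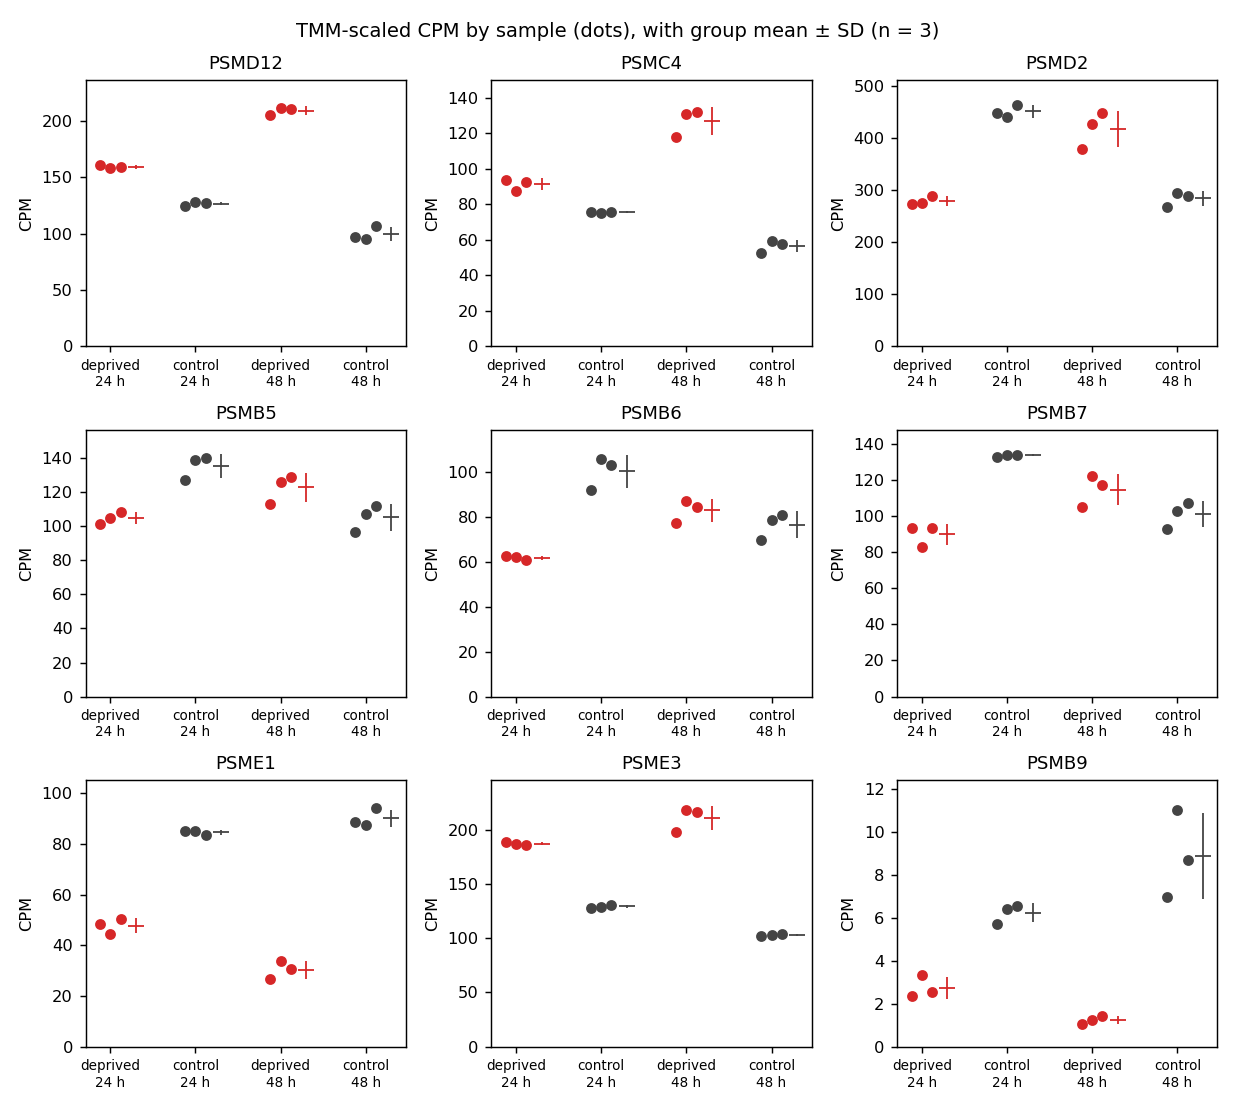
TMM-scaled CPM (vertical axes, from 0) of 9 proteasome genes in each sample (dots) with the group mean ± SD (n = 3), deprived cells in red and controls in dark grey. PSMD2 lies below its controls at 24 h and above them at 48 h, PSMD12, PSMC4 and PSME3 lie above at both times, and PSME1 and PSMB9 lie below at both times.

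Among the non-catalytic beta subunits, PSMB3 had 86, 85.4 and 94.2 CPM in deprived cells and 111, 119 and 119 CPM in controls at 24 h, and 102, 115 and 118 CPM against 82, 94.6 and 93.1 CPM at 48 h. PSMB4 had 141, 146 and 148 CPM in deprived cells and 178, 180 and 183 CPM in controls at 24 h, and 159, 174 and 176 CPM against 133, 152 and 147 CPM at 48 h. Both fell and then stood above their controls, without overlap at either time. The corresponding values of PSMB1 were 184, 182 and 187 CPM in deprived cells and 196, 212 and 210 CPM in controls at 24 h, and 206, 232 and 225 CPM against 164, 178 and 186 CPM at 48 h. PSMB2 had 119, 114 and 125 CPM in deprived cells and 129, 131 and 138 CPM in controls at 24 h, and 133, 143 and 147 CPM against 91.6, 100 and 106 CPM at 48 h. For PSMB1 and PSMB2 the 24 h decrease was small (-0.16 ± 0.06, adjusted p = 0.0219, and -0.15 ± 0.06, adjusted p = 0.0423), and the 48 h increase was 0.33 ± 0.06 for PSMB1 and 0.51 ± 0.06 for PSMB2.

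The alpha ring, which gates entry to the chamber, was less uniform than the beta ring in the direction of its calls. PSMA2 had 66.8, 63 and 65.7 CPM in deprived cells and 94.9, 97.8 and 97.3 CPM in controls at 24 h, and 64.1, 67.6 and 67.9 CPM against 72.2, 83 and 83.7 CPM at 48 h. It was lower at both times, with log2 fold changes of -0.57 ± 0.06 at 24 h (adjusted p = 1.4e-07) and -0.26 ± 0.06 at 48 h (adjusted p = 0.000716). PSMA4 was also lower at both times (-0.45 ± 0.06, adjusted p = 6.61e-06, and -0.23 ± 0.06, adjusted p = 0.00403). Its difference between the times was not called (0.23 ± 0.09, adjusted p = 0.0591), and was called with DESeq2 (0.24, adjusted p = 0.0322). PSMA1, PSMA3 and PSMA6 fell at 24 h, with log2 fold changes of -0.14 to -0.18, and rose at 48 h.

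In detail, PSMA1 had 130, 128 and 134 CPM in deprived cells and 140, 148 and 144 CPM in controls at 24 h, and 162, 179 and 169 CPM against 120, 122 and 127 CPM at 48 h. PSMA3 had 67, 63 and 64.4 CPM in deprived cells and 72.4, 74.7 and 72.7 CPM in controls at 24 h, and 67.1, 68.9 and 66.7 CPM against 56, 55.5 and 59.3 CPM at 48 h. PSMA6 had 88.9, 80 and 83.4 CPM in deprived cells and 91.4, 98.4 and 95.1 CPM in controls at 24 h, and 89.6, 101 and 97.7 CPM against 83.9, 86.8 and 88.3 CPM at 48 h. These groups did not overlap in either direction. PSMA5 and PSMA7, not called at 24 h, rose at 48 h by 0.56 ± 0.06 (adjusted p = 3.62e-08) and 0.53 ± 0.06 (adjusted p = 2.67e-07).

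**Figure D3:**
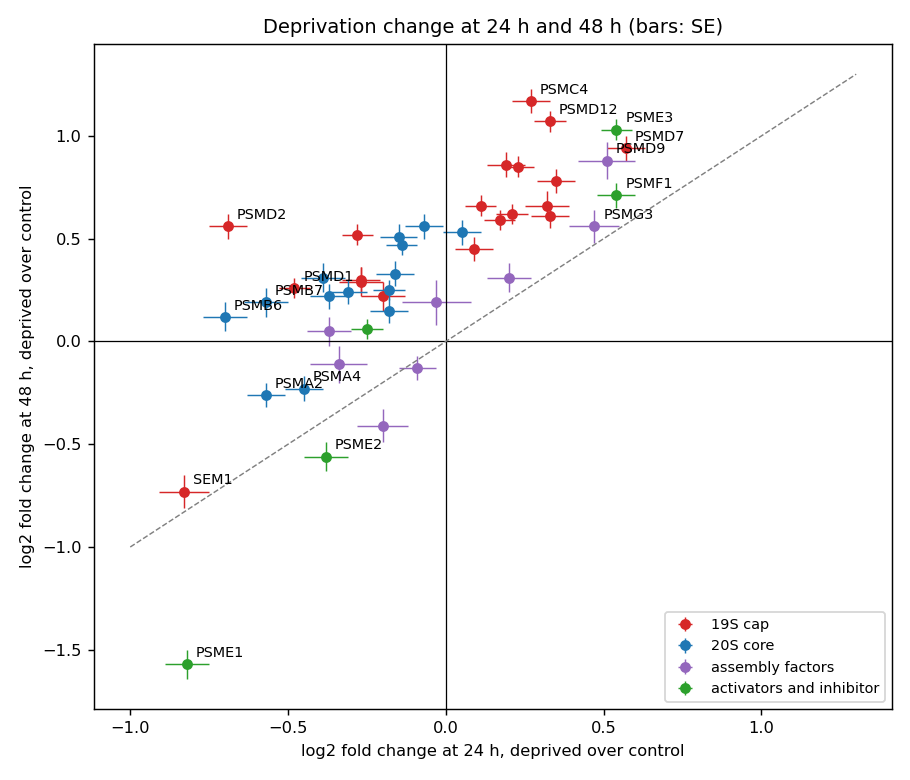
Log2 fold change of deprived over control cells at 24 h (horizontal) against that at 48 h (vertical) with SE bars, for 46 genes coloured by part of the complex, without the tissue-specific subunits. The dashed line marks equal change at both times, and every cap and core point lies above it, PSMD2 furthest.

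Levels were compared between genes per unit length, as TPM (the count divided by gene length, scaled to the same total in every library) computed from the deposited counts and the deposited gene lengths. In control cells at 24 h, core genes lay between 47.2 TPM for PSMA5 and 459 TPM for PSMB1, with a median of 250 TPM. Cap genes lay between 41.3 TPM for SEM1 and 308 TPM for PSMD2, with a median of 105 TPM. Assembly factors had a median of 42 TPM, with PSMD9 lowest at 8.57 TPM and POMP highest at 124 TPM. These levels rest on a single deposited length per gene and shift with it.

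Summed over the 19 cap genes, deprived cells at 24 h had 2415 ± 14.2 TPM and controls 2420 ± 8.62 TPM (SD, n = 3 each). At 48 h the sums were 2829 ± 53.2 TPM in deprived cells and 1802 ± 21.9 TPM in controls. Over the 14 core genes, deprived cells had 2770 ± 24.3 TPM and controls 3471 ± 72.8 TPM at 24 h, and deprived cells had 3229 ± 61.1 TPM and controls 2635 ± 84.8 TPM at 48 h. The cap total thus stood apart only at 48 h, and the core total was below its controls at 24 h and above them at 48 h.

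The ratio of the cap total to the core total is taken within a library and so does not depend on how libraries are scaled. It was 0.873, 0.879 and 0.863 in deprived cells and 0.706, 0.682 and 0.705 in controls at 24 h. At 48 h it was 0.874, 0.871 and 0.883 in deprived cells and 0.699, 0.682 and 0.672 in controls. All 6 deprived samples lay above all 6 controls, and the 2 deprived groups lay within 0.863 to 0.883. Without PSMD2, the cap gene with the highest level in the 24 h controls, the ratio was 0.795 to 0.812 in deprived cells and 0.597 to 0.615 in controls at 24 h, and 0.787 to 0.793 in deprived cells and 0.604 to 0.629 in controls at 48 h. No p-value is given for a total over chosen genes.

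**Figure D4:**
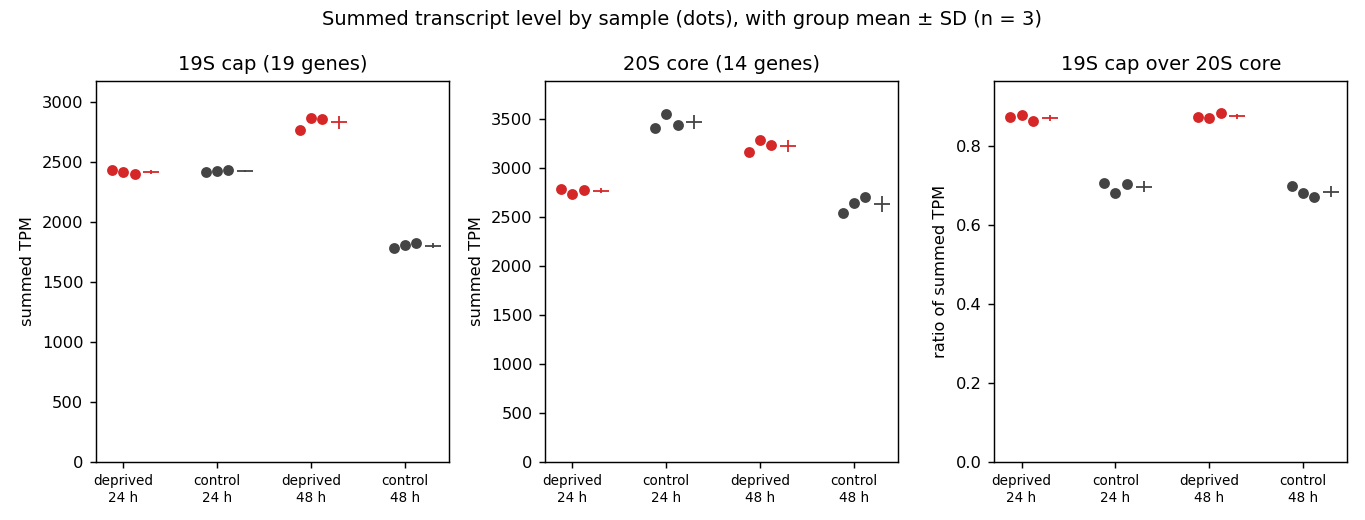
Summed TPM of the 19S cap genes (left) and of the 20S core genes (middle) and the ratio of the sums (right) in each sample (dots) with the group mean ± SD (n = 3). The ratio is 0.863 to 0.883 in the 6 deprived samples and 0.672 to 0.706 in the 6 controls, at both times.

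The 8 assembly factors showed no shared direction. At 24 h, 3 were higher (37.5%) and 3 lower (37.5%), where 28.8% and 26.9% of all genes were. At 48 h, 3 were higher (37.5%) and 2 lower (25%), where 33.5% and 34.9% of all genes were, so these shares lay near those of all genes. The medians were -0.06 and 0.12. Factors that chaperone the cap base rose for PSMD9 and PSMD10, while PSMD5 was not called at 24 h (-0.09 ± 0.06, adjusted p = 0.195) and was marginally lower at 48 h (-0.13 ± 0.06, adjusted p = 0.0475). PSMD9 had 15.8, 17.2 and 17.2 CPM in deprived cells and 12.2, 11.2 and 11.7 CPM in controls at 24 h, and 19.2, 19.8 and 21.6 CPM against 11.5, 9.51 and 11.7 CPM at 48 h. Its groups were separated at both times, with log2 fold changes of 0.51 ± 0.09 (adjusted p = 0.000131) and 0.88 ± 0.09 (adjusted p = 7.03e-08). The 48 h call of PSMD5 was lost without any 1 of 11 of the 12 libraries (log2 fold change -0.14 to -0.11, adjusted p = 0.0509 to 0.139); the exception was replicate 1 of the 24 h deprived cells. It was also lost with DESeq2 (adjusted p = 0.101), RLE size factors (0.0703), no filter on low counts (0.181) and only the compared groups in the fit (0.103), each at -0.12. At 24 h PSMD5 was called lower under upper-quartile scaling and with library totals alone (-0.16 in each, adjusted p = 0.0243 in each).

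POMP, the maturation factor that acts where partly built cores join, had 68.6, 60.9 and 64.3 CPM in deprived cells and 86.8, 89.6 and 74.2 CPM in controls at 24 h. At 48 h it had 68.7, 74.4 and 77.8 CPM in deprived cells and 65.9, 73.6 and 74.2 CPM in controls. It fell at 24 h (-0.37 ± 0.07, adjusted p = 0.000291), and at 48 h its groups overlapped (0.05 ± 0.07, adjusted p = 0.583). PSMG3, which with PSMG4 helps to build the alpha ring, had 29.6, 29.1 and 29.9 CPM in deprived cells and 20.3, 21 and 22.5 CPM in controls at 24 h, and 32.4, 33.4 and 35.7 CPM against 20.9, 25.7 and 22 CPM at 48 h. It was the only core assembly factor higher at both times.

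PSMG1 and PSMG2, which work as a pair in alpha ring assembly, did not rise. PSMG1 had 26.3, 22.7 and 20.3 CPM in deprived cells and 28.4, 31.4 and 27.5 CPM in controls at 24 h, and 19.3, 21 and 19.1 CPM against 20.2, 21.5 and 22.2 CPM at 48 h. PSMG2 had 29.8, 27.7 and 29.1 CPM in deprived cells and 33.2, 36.2 and 29.9 CPM in controls at 24 h, and 22.3, 25.9 and 23.2 CPM against 29.7, 33.2 and 32.2 CPM at 48 h. PSMG1 was lower at 24 h (-0.34 ± 0.09, adjusted p = 0.00312) and not called at 48 h (-0.11 ± 0.09, adjusted p = 0.313), and PSMG2 was lower at both (-0.20 ± 0.08, adjusted p = 0.0385, and -0.41 ± 0.08, adjusted p = 0.000146). PSMG4 had 12.7, 13.3 and 12.9 CPM in deprived cells and 13.5, 13.9 and 12.4 CPM in controls at 24 h, and 13.9, 16.9 and 14.8 CPM against 11.9, 12.4 and 15.6 CPM at 48 h. Its groups overlapped at both times and it was not called (adjusted p = 0.825 and 0.116), except that it was called higher at 48 h without replicate 3 of the 48 h control (0.33, adjusted p = 0.011).

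The activators of the core moved in opposite directions. PSME1 and PSME2 encode the subunits of PA28-alpha-beta, the interferon-inducible activator, and both were lower in deprived cells at both times. PSME1 (ENSG00000092010, chr14:24136158-24138967) had 48.5, 44.6 and 50.4 CPM in deprived cells and 85.2, 85.3 and 83.5 CPM in controls at 24 h, and 26.7, 33.8 and 30.8 CPM against 88.6, 87.7 and 94.1 CPM at 48 h. PSME2 had 58.4, 53.9 and 53 CPM in deprived cells and 74, 75.7 and 65.4 CPM in controls at 24 h, and 47.9, 48.7 and 48.8 CPM against 65.1, 75.2 and 74 CPM at 48 h. No deprived sample reached a control sample for either gene. PSME1 had log2 fold changes of -0.82 ± 0.07 at 24 h (adjusted p = 8.96e-09) and -1.57 ± 0.07 at 48 h (adjusted p = 4.29e-13), a difference of -0.74 ± 0.10 (adjusted p = 1.03e-05). PSME2 changed by -0.38 ± 0.07 (adjusted p = 8.8e-05) and -0.56 ± 0.07 (adjusted p = 5.18e-07).

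PSME3, the nuclear activator PA28-gamma (ENSG00000131467, chr17:42824385-42843758), had 189, 187 and 186 CPM in deprived cells and 128, 129 and 131 CPM in controls at 24 h, and 198, 218 and 216 CPM against 102, 103 and 104 CPM at 48 h. It rose by 0.54 ± 0.05 at 24 h (adjusted p = 2.04e-08) and 1.03 ± 0.05 at 48 h (adjusted p = 6.74e-13). PSMF1, known as the inhibitor PI31, rose as well. It had 102, 102 and 112 CPM in deprived cells and 70.7, 72.4 and 74.6 CPM in controls at 24 h, and 113, 124 and 125 CPM against 71.7, 76.5 and 73.1 CPM at 48 h, with log2 fold changes of 0.54 ± 0.06 (adjusted p = 1.78e-07) and 0.71 ± 0.06 (adjusted p = 1.52e-09). PSME4, the activator PA200, had 101, 91.8 and 99.5 CPM in deprived cells and 117, 117 and 114 CPM in controls at 24 h, and 99.4, 103 and 102 CPM against 97.8, 97.7 and 97 CPM at 48 h. It was lower at 24 h (-0.25 ± 0.05, adjusted p = 0.00028) and not called at 48 h (0.06 ± 0.05, adjusted p = 0.293).

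The immunoproteasome subunits were at low levels in all 4 groups, and PSMB8 and PSMB9 were lower in deprived cells at 48 h. PSMB9 (ENSG00000240065, chr6:32844136-32859585), which replaces PSMB6, had 2.34, 3.33 and 2.53 CPM in deprived cells and 5.72, 6.42 and 6.56 CPM in controls at 24 h, and 1.06, 1.25 and 1.41 CPM against 6.99, 11 and 8.67 CPM at 48 h. Its groups did not overlap, with log2 fold changes of -1.18 ± 0.19 (adjusted p = 3.15e-05) and -2.83 ± 0.21 (adjusted p = 4.23e-10). PSMB8, which replaces PSMB5, had 0.195, 0.432 and 0.557 CPM in deprived cells and 0.378, 0.205 and 0.461 CPM in controls at 24 h, and 0.088, 0.0464 and 0.364 CPM against 0.895, 1.19 and 0.964 CPM at 48 h. PSMB8 did not exceed 25.7 estimated counts in any library, and its errors were wide. It was called lower at 48 h (-2.57 ± 0.57, adjusted p = 0.000544) and was not called at 24 h (0.19 ± 0.57, adjusted p = 0.797). In controls PSMB8 was higher at 48 h than at 24 h (1.52 ± 0.51, adjusted p = 0.039), so the 48 h difference contains that rise.

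PSMB10, which replaces PSMB7, went the other way at 48 h. It had 6.92, 7.43 and 7.97 CPM in deprived cells and 8.75, 9.34 and 8.26 CPM in controls at 24 h, and 9.51, 9.42 and 10.2 CPM against 6.05, 7.08 and 7.2 CPM at 48 h. At 24 h it was not called (-0.24 ± 0.11, adjusted p = 0.0856), although its groups did not overlap and it was called lower under upper-quartile scaling and with library totals alone (-0.31 in each), and at 48 h it was higher (0.52 ± 0.11, adjusted p = 0.000465). PSMA8, an alpha subunit known from testis, had 2.49, 1.99 and 2.53 CPM in deprived cells and 2.36, 3.65 and 3.18 CPM in controls at 24 h. At 48 h PSMA8 had 0.572, 0.835 and 0.911 CPM in deprived cells and 4.43, 5.85 and 4.73 CPM in controls, a log2 fold change of -2.69 ± 0.25 (adjusted p = 1.15e-08).

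Relative to the constitutive partner, the TPM of PSMB9 was 3.02, 4.34 and 3.37% of that of PSMB6 in deprived cells and 5.04, 4.91 and 5.18% in controls at 24 h. At 48 h it was 1.11, 1.17 and 1.35% in deprived cells and 8.12, 11.3 and 8.66% in controls. PSMB8 amounted to 0.18 to 0.478% of PSMB5 in deprived cells and 0.137 to 0.307% in controls at 24 h, and to 0.0342 to 0.262% in deprived cells and 0.796 to 1.02% in controls at 48 h. PSMB10 amounted to 7.5 to 9.03% of PSMB7 in deprived cells and 6.22 to 7.03% in controls at 24 h, and to 7.73 to 9.12% in deprived cells and 6.57 to 6.95% in controls at 48 h. The PSMB9 share was thus lower and the PSMB10 share higher in every deprived sample than in every control of the same time.

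**Figure D5:**
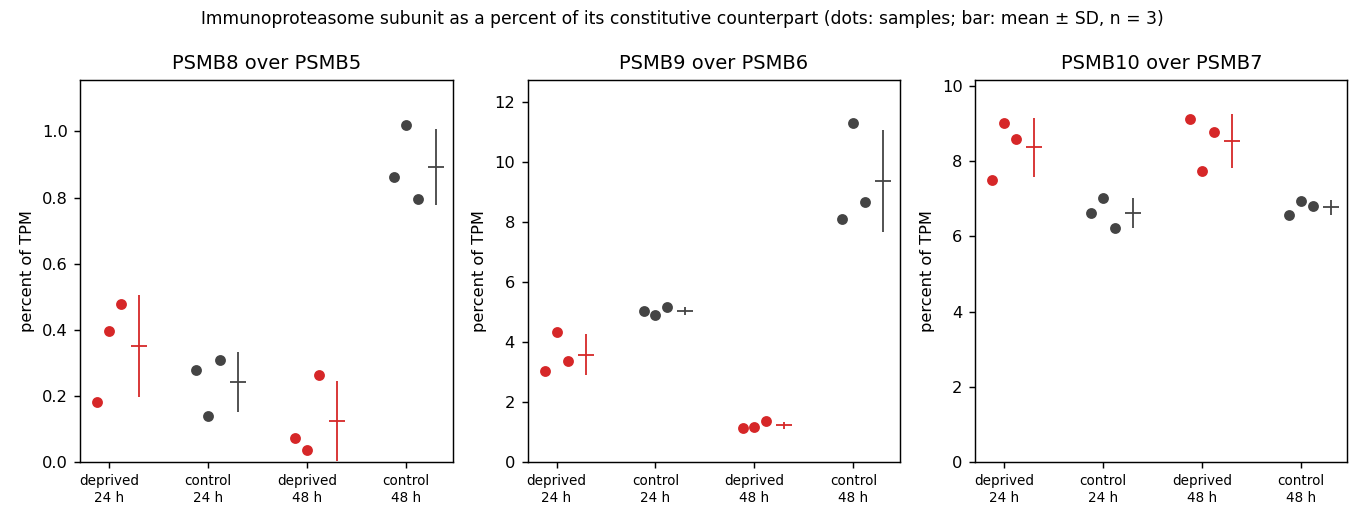
TPM of PSMB8, PSMB9 and PSMB10 as a percent of the TPM of PSMB5, PSMB6 and PSMB7 in each sample (dots) with the group mean ± SD (n = 3), deprived cells in red and controls in dark grey. PSMB9 over PSMB6 is 1.11 to 1.35% in deprived cells and 8.12 to 11.3% in controls at 48 h, and PSMB10 over PSMB7 does not follow it.

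The change of sign was accompanied by a change in the controls. In control cells at 48 h against control cells at 24 h, 35 of the 50 genes were lower and 3 higher, where 10.4% and 12.7% of all genes were, with a median log2 fold change of -0.29. The 3 higher were PSMA8, PSMB8 and PSMB9, of which 0 to 2 were called without any 1 of the 6 control libraries or without replicate 2 of the 24 h deprived cells. The lower genes included 17 of 19 cap genes (median -0.33) and 13 of 14 core genes (median -0.36). In deprived cells at 48 h against deprived cells at 24 h, 30 were higher and 6 lower, where 20.7% and 21.8% of all genes were, with a median of 0.19. The higher genes included 13 cap and 10 core genes, with medians of 0.21 and 0.23. For PSMD2 the change over time was -0.67 ± 0.06 in controls (adjusted p = 2.54e-07) and 0.58 ± 0.06 in deprived cells (adjusted p = 1.74e-07), and for PSMD1 it was -0.66 ± 0.05 in controls and 0.08 ± 0.05 in deprived cells (adjusted p = 3.51e-08 and 0.231). As a share of all counts in named genes, the 51 genes held 0.541 ± 0.0163% in deprived cells and 0.41 ± 0.0136% in controls at 48 h, and 0.466 ± 0.00529% in deprived cells and 0.528 ± 0.00624% in controls at 24 h (SD, n = 3 each). Without TMM factors, 1697 of 4277 calls over all genes in controls over time were higher (39.7%), where 2151 were higher and 1760 lower with them, and 17 cap and 14 core genes were lower.

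Several small changes rested on single libraries. At 24 h the decreases of PSMA1, PSMA6, PSMB1, PSMB2, PSMC6 and PSMG2 lost their calls without replicate 2 of the control or without replicate 2 of the deprived cells. Over all libraries whose removal ended a call, the log2 fold changes were -0.13 to -0.12 for PSMA1, -0.15 to -0.14 for PSMA6, -0.16 to -0.14 for PSMB1, -0.16 to -0.12 for PSMB2, -0.19 to -0.15 for PSMC6 and -0.22 to -0.13 for PSMG2. PSMA1 and PSMB1 also lost it without replicate 3 of the 24 h control or replicate 1 of the 24 h deprived cells, and PSMB2 without those or replicate 2 of the 48 h deprived cells. PSMC6 also lost it without replicate 1 of the 24 h control or replicate 3 of the 24 h deprived cells, and PSMG2 without replicate 1 of the control or replicates 1 or 3 of the deprived cells. The 24 h increase of PSMD6 was lost without replicate 1 of the control or of the deprived cells (0.14 to 0.15), and that of PSMD10 without replicates 1 or 3 of the control or replicate 3 of the deprived cells (0.18). At 48 h, PSMA6 (0.12 to 0.14) and PSMB7 (0.13 to 0.14) lost their increase without replicate 1 of the control or replicate 2 of the deprived cells, PSMA6 also without replicate 3 of the deprived cells, and PSMC6 (0.17 to 0.18) without replicate 2 of the control or replicate 1 of the deprived cells.

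Some of the genes share exons with neighbours, and the sources used here do not give whether counting used strand. PSMC5 shares 874 exonic bases with FTSJ3 on the other strand, PSMC1 shares 4671 with NRDE2, PSMG4 shares 1388 with SLC22A23, PSME3 shares 300 with BECN1 and ADRM1 shares 244 with LAMA5. Reads of such partners cannot be told apart without strand. PSMA2 shares 781 bases with AC010132.3 and PSMA6 shares 919 with AL121594.1 on the same strand, and PSMD9 shares 436 with WDR66. PSMB8 shares 618 bases with PSMB8-AS1 on the other strand, which averaged 9.09 estimated counts, where PSMB8 averaged 10.6, and 139 with PSMB9, also on the other strand. PSMB9 shares 174 bases with PSMB8-AS1 on the same strand. The pseudogene PSMC1P1 had 106 to 321 estimated counts per library, where PSMC1 had 1938 to 3674, so a part of their reads could be exchanged.

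Genes that act with the proteasome were followed as lists chosen for their role. Over all genes tested, 28.8% were called higher and 26.9% lower at 24 h, and 33.5% higher and 34.9% lower at 48 h. Of 17 enzymes and shuttle proteins that bind it, 14 were higher (82.4%, against 28.8% of all genes) and the other 3 not called at 24 h (median log2 fold change 0.51). At 48 h 16 were higher (94.1%, against 33.5% of all genes) and 1 lower (median 0.65). AKIRIN2, which mediates the nuclear import of proteasomes, had 64.9, 65.5 and 65.2 CPM in deprived cells and 33.8, 29.6 and 33.4 CPM in controls at 24 h, and 86.7, 89.6 and 94.9 CPM against 33.8, 33.5 and 34.8 CPM at 48 h. Its groups were far apart, with log2 fold changes of 1.01 ± 0.06 (adjusted p = 7.14e-11) and 1.41 ± 0.06 (adjusted p = 1.19e-13). UCHL5, the deubiquitinase that docks on ADRM1, rose by 0.92 ± 0.06 and 0.95 ± 0.06, the shuttle RAD23B by 0.80 ± 0.05 and 0.50 ± 0.05, and the shuttle UBQLN1 by 0.51 ± 0.05 and 0.88 ± 0.05 at 24 h and 48 h.

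Of 14 regulators of proteasome genes, 8 were higher (57.1%, against 28.8% of all genes) and 2 lower (14.3%, against 26.9%) at 24 h. At 48 h 9 were higher (64.3%, against 33.5%) and 3 lower (21.4%, against 34.9%). NFE2L1, the transcription factor that induces proteasome genes, had 565, 550 and 549 CPM in deprived cells and 224, 225 and 247 CPM in controls at 24 h, and 464, 487 and 469 CPM against 215, 225 and 217 CPM at 48 h. The log2 fold changes were 1.26 ± 0.05 (adjusted p = 1.47e-13) and 1.11 ± 0.05 (adjusted p = 2.22e-13), so NFE2L1 mRNA was raised at both times. At 24 h 12 of 14 core genes were lower, and of 19 cap genes 10 were higher and 7 lower. A link of NFE2L1 with these changes was not tested. NFE2L2 rose by 0.77 ± 0.06 and 0.92 ± 0.06, and KEAP1, the adaptor that targets it for degradation, by 0.45 ± 0.06 and 1.00 ± 0.06. STAT3 was lower, with log2 fold changes of -0.48 ± 0.05 and -0.85 ± 0.05.

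Of 8 ubiquitin and ubiquitin-like E1 genes, 3 were higher (37.5%, against 28.8% of all genes) and 5 lower (62.5%, against 26.9%) at 24 h. At 48 h 2 were higher (25%, against 33.5%) and 5 lower (62.5%, against 34.9%), so the shares of higher genes lay near those of all genes. UBB, which encodes ubiquitin, was lower at both times, with log2 fold changes of -0.73 ± 0.06 and -0.64 ± 0.06. Of 9 genes of the unfoldase VCP and its cofactors, 4 were higher (44.4%, against 28.8% of all genes) and 3 lower (33.3%, against 26.9%) at 24 h. At 48 h 7 were higher (77.8%, against 33.5%) and 1 lower (11.1%, against 34.9%). The cofactor NPLOC4 was not called at 24 h (0.03 ± 0.05, adjusted p = 0.616) and rose by 0.66 ± 0.05 at 48 h (adjusted p = 3.45e-10), and VCP itself was lower at 24 h (-0.14 ± 0.05, adjusted p = 0.0401) and higher at 48 h (0.33 ± 0.05, adjusted p = 1.94e-05).

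Of 8 regulators and partners of the immunoproteasome in antigen processing, 1 was higher (12.5%, against 28.8% of all genes) and 5 lower (62.5%, against 26.9%) at 24 h. At 48 h 2 were higher (25%, against 33.5%) and 4 lower (50%, against 34.9%). TAPBP, which helps to load peptides on MHC class I, changed by -1.59 ± 0.07 and -1.19 ± 0.07, and B2M, the light chain of MHC class I, by -0.33 ± 0.06 and -1.35 ± 0.06. The peptide transporter subunit TAP1 was lower at both times (-0.70 ± 0.06 and -0.76 ± 0.06), while TAP2 was higher at both (0.24 ± 0.07, adjusted p = 0.00412, and 0.54 ± 0.07, adjusted p = 5.25e-07).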

How the data were processed

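RNA was sequenced from 12 samples in 4 groups of 3. The deposited gene table holds estimated (expected) counts by gene with a gene length. Per the submitters' processing notes, the tools named are fastp, HISAT and RSEM and the build is GRCh38, and of the deposited values 14.2% are not whole numbers, as estimated counts need not be. Strand, annotation release and versions are not given in the sources used here. Counts were rounded. Of 60987 rows, 316 name no gene and were left out (0.748 to 1.65% of counts).

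The quasi-likelihood test of edgeR 4.0.16 (R 4.3.3) was fitted to all 4 group means after TMM scaling (factors 0.968 to 1.05) and a filter on low counts (filterByExpr, minimum count 10, minimum total 15), with Benjamini-Hochberg adjustment over 16994 genes. The biological coefficient of variation was 6.4%. SE is the log2 fold change divided by the square root of F. The comparisons were deprived against control at each time, the difference of these, and 48 h against 24 h within each medium. On simulated counts with changed genes, the fit recovered 72.7% of 1.5-fold, 76% of 2-fold and 85.7% of 4-fold changes at 24 h, with 5.99% of calls false. At 48 h it recovered 70.6%, 71.6% and 92.3%, with 3.11% of calls false. The simulation changed 55, 75 and 70 of 16553 genes at 24 h. In the data 28.8% of genes were called higher and 26.9% lower at that time, so the simulated shares need not hold for these data. Over 19146108 to 24179533 counts per library, precision was set by the spread between samples for genes with many counts. For genes with few, such as PSMB8 (at most 25.7 estimated counts, SE 0.57 at each time), low counts also widened the error. Gene coordinates are those of GENCODE 29 (GRCh38), matched by gene ID. Alternatives were DESeq2 1.42.0, other scalings and filters, a replicate block and leaving out each library. The genes, lists and tests were chosen with earlier results of these data known. Every sample's value was to be given for the 6 largest called changes at each time, the catalytic, immunoproteasome, activator and core assembly genes, the 4 clearest differences between times and the genes that changed sign.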

Additional observations from a re-analysis of the deposited data

Results flagged for a closer look

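The effect of cystine deprivation differed between 48 h and 24 h, by the test of the difference itself (edgeR's quasi-likelihood test, adjusted p below 0.05), in 40 of the 50 genes tested. The change at 48 h was more positive in 36 and more negative in 4, where 16.4% and 19.2% of all genes tested were so called. Each value below is the log2 fold change at 48 h minus that at 24 h.

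In the 19S cap the difference was 1.25 for PSMD2, 0.90 for PSMC4, 0.80 for PSMC2, 0.74 for PSMD1, 0.74 for PSMD12, 0.67 for PSMC1, 0.63 for PSMD11, 0.57 for PSMD3, 0.56 for PSMD13, 0.54 for PSMD14, 0.43 for PSMC5, 0.43 for PSMD6, 0.42 for PSMC6, 0.41 for PSMD4, 0.38 for PSMD7, 0.36 for PSMC3, 0.34 for PSMD8 and 0.28 for ADRM1. In the 20S core it was 0.81 for PSMB6, 0.76 for PSMB7, 0.70 for PSMB3, 0.66 for PSMB2, 0.63 for PSMA5, 0.61 for PSMA1, 0.59 for PSMB5, 0.55 for PSMB4, 0.49 for PSMB1, 0.48 for PSMA7, 0.42 for PSMA3, 0.33 for PSMA6 and 0.31 for PSMA2. All of these were positive.

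Outside the cap and the standard core it was 0.49 for PSME3, 0.31 for PSME4, 0.37 for PSMD9, 0.42 for POMP and 0.76 for PSMB10, all positive, and -2.76 for PSMB8, -2.30 for PSMA8, -1.65 for PSMB9 and -0.74 for PSME1, all negative. The call of PSMB8 was lost without replicate 3 of the 24 h deprived cells (-2.43, adjusted p = 0.0505). That of PSMD9 was lost without any of 5 libraries (0.28 to 0.37): replicate 1 or 3 of the 24 h control, replicate 2 of the 48 h control, replicate 1 of the 24 h deprived cells or replicate 3 of the 48 h deprived cells. Groups of 3 samples were too small for a test of single outlying samples.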

How the results depend on the processing

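The counts of called genes were recomputed under 8 other settings and with each of the 12 libraries left out. With each library left out, 13 to 16 genes were higher and 20 to 26 lower at 24 h, 33 to 36 higher and 9 to 10 lower at 48 h, and 35 to 38 had a more positive and 3 to 4 a more negative change at 48 h. Under the other settings, 12 to 16 were higher and 25 to 29 lower at 24 h, and 32 to 35 higher and 7 to 10 lower at 48 h. With a mean of at least 5 CPM required, 47 genes were tested and 1, not 4, had a more negative change at 48 h, because fewer genes were tested. The smallest changes crossed 0 without being called: PSMA7 at 24 h was -0.02 under upper-quartile scaling and -0.03 with library totals alone; PSMB8 at 24 h was -0.07 without replicate 2 of the 24 h control and -0.13 without replicate 3 of the 24 h deprived cells, in a range of -0.13 to 0.50 over left-out libraries; PSMG4 at 24 h was 0.00 without replicate 2 of the 24 h control. POMP at 48 h was -0.01 under upper-quartile scaling and without replicate 1 of the 48 h control (-0.01 to 0.10 over left-out libraries), and the difference between times for PSMD5 was 0.01 with library totals alone and 0.02 without replicate 1 of the 24 h deprived cells. Upper-quartile scaling and library totals lowered the median of all genes at 24 h to -0.08, and PSMC1 (0.12), PSMD6 (0.09 to 0.10) and PSMD10 (0.13) then lost their 24 h increase, while PSMA5 (-0.15 to -0.14), PSMB10 (-0.31) and PSMD5 (-0.16) were called lower; upper-quartile scaling ended the 48 h increase of PSMA6 (0.09), PSMB7 (0.13) and PSMC6 (0.16). The cause of these changes was not tested. Deviations from the group means correlated by -0.01 to 0.126 between same-numbered deprived and control samples, the highest being replicate 1 at 48 h. Between differently numbered samples the correlations were -0.116 to 0.075. With 3 samples per group, such values cannot decide whether the replicate number pairs the samples, and the main fit used no pairing. With a replicate block, 15 genes were higher and 26 lower at 24 h and 35 higher and 10 lower at 48 h, and 1 of 150 gene results changed its call: the difference between the times for PSMA4 (0.23, adjusted p = 0.0591) was called with the block (0.22, adjusted p = 0.0441). It was also called with DESeq2, RLE size factors, upper-quartile scaling, library totals alone, no filter and a mean of at least 5 CPM (0.21 to 0.28). PSMB8 and PSMB11 did not exceed 25.7 and 6 estimated counts in any library.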
